A study of Homo sapiens with 10 samples.

Results

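The genes described here are 39 genes of amino acid supply and tRNA charging, read in 10 RNA-seq libraries of the lung cancer cell lines H460 and A549. They were taken by symbol from the 46427 genes of the deposited table, and all 39 were found. Of these, 19 encode cytosolic aminoacyl-tRNA synthetases, 8 encode enzymes of amino acid synthesis and folate metabolism, 8 encode factors and effectors of the integrated stress response, and 4 encode amino acid transporters. The rule that chose them names genes by function, but it was set with earlier results of these data known.

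Aminoacyl-tRNA synthetases join each amino acid to its tRNA and so feed the ribosome. When amino acids run short or unfolded protein builds up in the endoplasmic reticulum, kinases phosphorylate the initiation factor eIF2, general translation falls and the mRNA of the transcription factor ATF4 is translated better. ATF4, together with C/EBP partners, then raises transcription of synthetases, of enzymes that make serine, glycine, asparagine and proline, of amino acid transporters, and of stress factors such as DDIT3 (CHOP). Many lung cancers run the serine pathway at a high level, starting from PHGDH.

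The libraries were poly(A) RNA of established lines and fall into 7 groups. Parental H460 cells grown in 2 dimensions (2D) gave 3 libraries. Cells that survived a drug gave 4: 1 of cisplatin-resistant (CR), 2 of paclitaxel-resistant (PR) and 1 of doxorubicin-resistant (DR) H460 cells. These had 3 days of 4 µM cisplatin, 5 nM paclitaxel or 0.5 µM doxorubicin, then 3 days of fresh medium, and the cells that attached after re-plating were taken. Tumor sphere (TS) cells of H460, A549 cells in 2D and TS cells of A549 gave 1 library each. TS cells grew without serum, with B27, bFGF and EGF, on plates that block attachment, so culture form and medium changed together. In the labels the TS libraries carry the name CTC, and CR A549 cells were not analysed here. Each line is a single established line, and the drug-surviving cells are those left after a short exposure rather than a line selected over many passages.

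Each library held between 59499787 and 89541774 counted reads. Replicates of 1 group differed by far more than counting noise, with a chi-square per gene of 80.74 for the PR pair, so none was a library read again. No label says that replicates came from separate cultures, and p-values measure only the spread between these samples, which may be technical. Genes with a read numbered 21036 to 21603 in the parental libraries and 22720 to 26745 in the drug-surviving ones. The epithelial markers KRT8 (282.7 to 3866 FPKM) and KRT18 (190.4 to 3229 FPKM) were present in all 10 libraries, whereas EPCAM stayed at or below 1.04 FPKM and CDH1 at or below 11.9 FPKM. PTPRC and CD3E of blood cells and PECAM1 and CDH5 of endothelium did not exceed 0.157 FPKM in any library. The other 3 of the 7 markers of other cells were present in more libraries. CD68 of blood cells read 15 to 69.8 FPKM, and COL1A1 and DCN of fibroblasts read 0.051 to 6.51 and 0 to 0.319 FPKM. All 3 were called higher in drug-surviving than in parental H460 cells (edgeR, below), where 18.5% of all genes tested were.

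The sequence that ATF4 binds with a C/EBP partner was sought first, since the genes were chosen partly as known ATF4 targets. The letters TGATGNAA were searched on both strands between 250 bases before and 50 bases after each RefSeq start (GRCh38.p14), and no other motif was searched. Of the 32 members with such a window, 14 held it (43.8%), against 4.46% of all genes with a window and 3.02% of those that were also tested for the drugs. Counted by window, 29.2% of 48 member windows held it, against 3.62% of all 35116 windows. A higher share follows in part from how the genes were chosen. By role the 14 members were 7 of 16 synthetases, 1 of 5 synthesis enzymes, 3 of 7 stress genes and 3 of 4 transporters. Windows around the match are shown for 8 members, read along the strand of the gene, with the matched letters in capitals. TTGCATCA is the match read from the other strand.
ASNS (chr7:97872458-97872487, minus strand): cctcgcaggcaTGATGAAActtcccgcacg
CHAC1 (chr15:40953251-40953280, plus strand): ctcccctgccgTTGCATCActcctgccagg
CEBPG (chr19:33374060-33374089, plus strand): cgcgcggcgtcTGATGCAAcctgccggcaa
ATF3 (chr1:212565205-212565234, plus strand): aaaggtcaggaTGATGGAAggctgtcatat
AARS1 (chr16:70289675-70289704, minus strand): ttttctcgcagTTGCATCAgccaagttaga
IARS1 (chr9:92293692-92293721, minus strand): ttttcagcgcgTTGCATCAcctccgtgcgc
MARS1 (chr12:57488053-57488082, plus strand): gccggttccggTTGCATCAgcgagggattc
SLC7A1 (chr13:29595663-29595692, minus strand): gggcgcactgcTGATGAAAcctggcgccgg
In ASNS the match lay 68 to 61 bases before the start, and in CEBPG 42 to 35 bases before it. The other 6 members with a match were CARS1, GARS1, NARS1, TARS1, SLC1A5 and SLC3A2. A match is a description of these letters and not of a bound site, and PHGDH, PSAT1, MTHFD2, DDIT3 and ATF4 held none in their windows. In drug-surviving against parental cells (edgeR, below) the median log2 fold change was -0.62 over the 14 members with a match. It was -0.50 over the 18 with a window and no match. Lower calls numbered 6 and 7, and a part of the motif in the change was not tested.

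In drug-surviving H460 cells many of these genes fell, above all the enzymes of serine and folate metabolism, while the stress factors DDIT3 and ATF3 rose. edgeR's quasi-likelihood test of the 4 drug-surviving against the 3 parental libraries, adjusted over 18398 genes by Benjamini-Hochberg, called 17 of the 39 lower and 2 higher at an adjusted p under 0.05. The 4 libraries (1 CR, 2 PR and 1 DR) were pooled as 1 group, with paclitaxel weighing most. Their SDs and p-values therefore also hold differences between drugs and are not a spread of replicates alone. Of all genes tested, 15.3% were called lower and 18.5% higher. The median log2 fold change of the 39 was -0.59, against 0.060 over all genes tested, and 33 of the 39 were negative. All 39 passed the filter on low counts. In FPKM (reads scaled to transcript length and library size), 17 members had every drug-surviving library below every parental library and 2 had every one above, where 13.6% and 25.8% of all tested genes did so. In bulk RNA, fewer cells of a kind and less RNA per cell cannot be told apart.

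**Figure D1:**
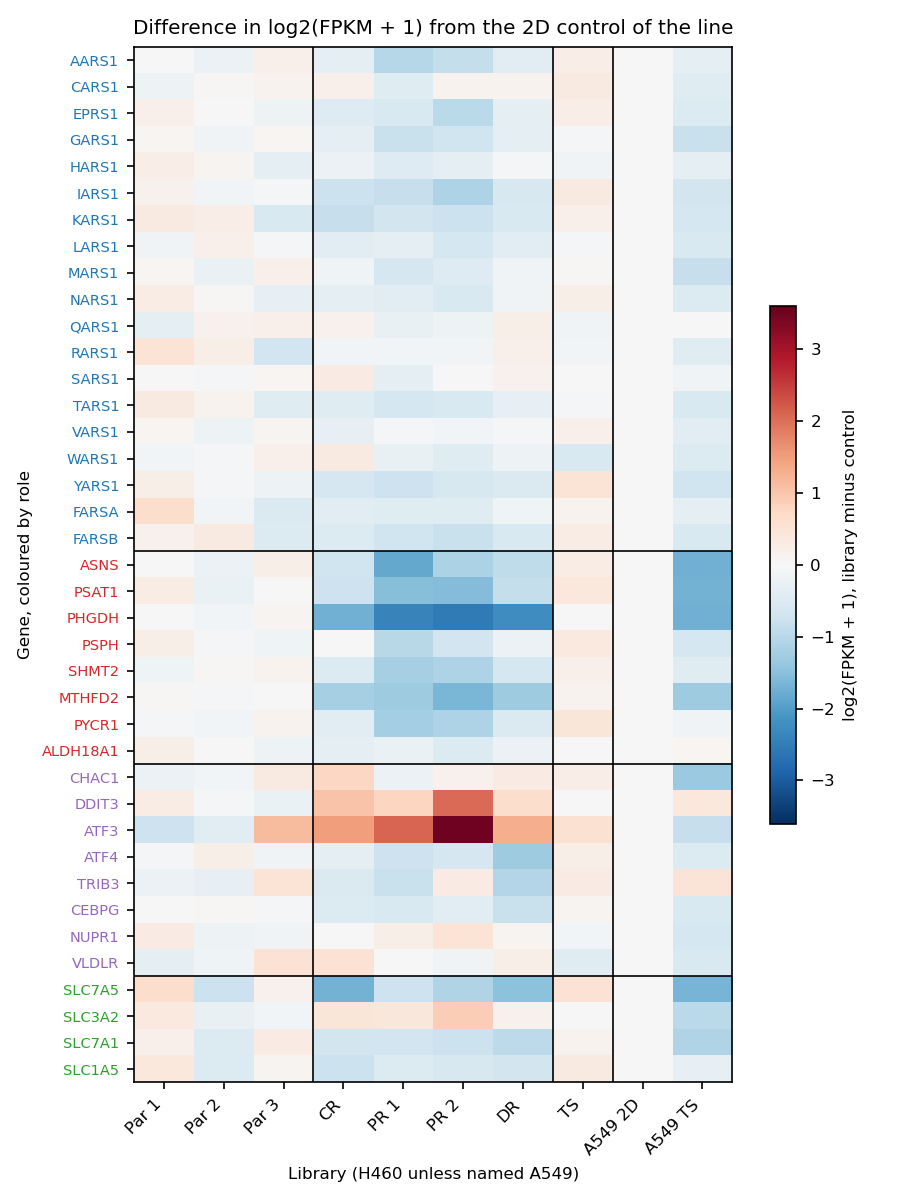
Difference of each gene's log2(FPKM + 1) from the 2D control of its line, by library (columns) and gene (rows, coloured by role: blue for synthetases, red for synthesis enzymes, purple for stress genes, green for transporters). H460 libraries are set against the mean of the 3 parental (Par) libraries and the A549 libraries against A549 2D; blue cells lie mainly in the 4 drug-surviving columns and in A549 TS, and the deepest blue is PHGDH in the PR libraries.

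The enzymes of serine synthesis and of mitochondrial folate metabolism held the largest falls. PHGDH (NCBI Gene 26227, chromosome 1, 119711934 to 119744215), which takes the first step from glycolysis to serine, stood at 106.6, 97.1 and 111.7 FPKM in the parental libraries. Its level was 31.1 in CR, 19.2 and 17 in PR and 21.6 FPKM in DR cells, so the groups were far apart. It fell by 2.34 ± 0.26 on the log2 scale (SE), which is 5.06-fold (adjusted p = 0.000273). MTHFD2, a mitochondrial folate enzyme (NCBI Gene 10797, chromosome 2, 74198615 to 74217565), averaged 86.5 ± 2.69 FPKM (SD, n = 3) in parental cells and 33.6 ± 4.59 FPKM (SD, n = 4) in drug-surviving cells. Its libraries read 89, 83.7 and 86.9 FPKM in parental cells, 37.4 in CR, 34.8 and 26.9 in PR and 35.3 in DR cells. The drop was 2.9-fold (log2 -1.54 ± 0.22, adjusted p = 0.000865), with no overlap.

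PSAT1, the aminotransferase after PHGDH (chromosome 9, 78297125 to 78330093), read 165.8, 117.9 and 136.2 FPKM in parental libraries against 82.2 in CR, 47.1 and 46 in PR and 76.7 in DR. ASNS, which makes asparagine (chromosome 7, 97851677 to 97928441), read 66.9, 56.8 and 76.8 FPKM against 40.2, 17.7, 29.6 and 34.7 FPKM in the same order. Both fell by 1.25 on the log2 scale with an SE of 0.29, with adjusted p-values of 0.00861 for PSAT1 and 0.00902 for ASNS, and for both every drug-surviving library was below every parental one. SHMT2, which moves a carbon unit from serine to folate in mitochondria, read 140.0, 159.6 and 168.7 FPKM in parental cells and 109.4 in CR, 67.5 and 71.3 in PR and 100.9 in DR. PYCR1, the last step of proline synthesis in mitochondria, read 53.2, 50.9 and 59.6 FPKM against 41, 22.8, 24.5 and 37.3. SHMT2 fell 1.91-fold (adjusted p = 0.0149) and PYCR1 fell 1.79-fold (adjusted p = 0.0302), again without overlap. The remaining enzymes of the group were PSPH, the phosphatase that releases serine (log2 -0.59 ± 0.34, adjusted p = 0.204), and ALDH18A1, which starts proline synthesis (log2 -0.43 ± 0.19, adjusted p = 0.104). In all, 6 of the 8 enzymes fell, with a group median of -1.09.

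**Figure D2:**
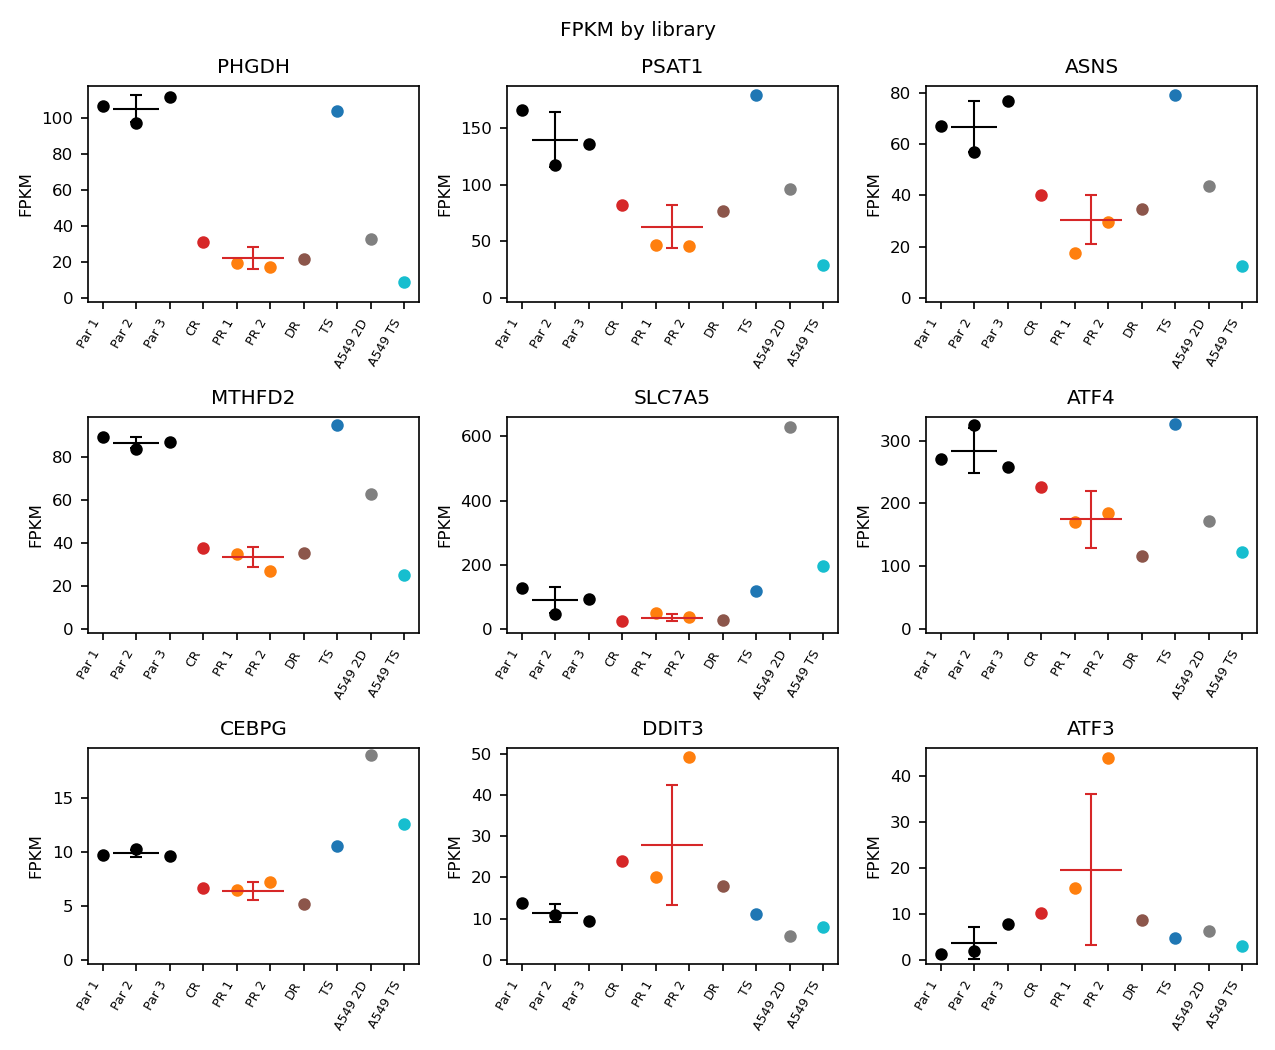
FPKM of 9 genes in each of the 10 libraries (1 point a library; H460 unless named A549). Bars are the mean ± SD of the 3 parental (Par, black) and the 4 drug-surviving (red) libraries; PHGDH and MTHFD2 separate these groups by the widest margin, DDIT3 and ATF3 go up with PR 2 the highest, and the A549 TS library is below A549 2D for all but DDIT3.

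Among the tRNA synthetases 7 of 19 fell and 12 did not pass the test, with a median log2 fold change of -0.54. All 19 values were negative in this fit, but for SARS1 and CARS1 the mean FPKM was slightly higher in drug-surviving cells (78.5 against 75.9 and 18.6 against 18.3). With upper-quartile scaling 30 of the 39 members were negative in place of 33. IARS1, for isoleucine, read 113.8, 96.3 and 98.1 FPKM in parental libraries and 59.2 in CR, 57.7 and 46.7 in PR and 68.5 in DR, a 1.9-fold drop without overlap (log2 -0.93 ± 0.21, adjusted p = 0.00816). The other called members were KARS1 for lysine (log2 -0.86), FARSB, the beta subunit for phenylalanine (log2 -0.84), AARS1 for alanine (log2 -0.75), YARS1 for tyrosine (log2 -0.74), EPRS1 for glutamate and proline (log2 -0.68) and LARS1 for leucine (log2 -0.56), with adjusted p-values between 0.0103 and 0.0455. In FPKM, 7 of the 19 lay wholly below the parental libraries, which were GARS1 and the called ones other than FARSB. FARSB met the parental range only at its edge, since CR cells and parental replicate 3 both read 28.7 FPKM.

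The other 12 synthetases did not pass. GARS1 for glycine (log2 -0.63, adjusted p = 0.0507) and TARS1 for threonine (log2 -0.60, adjusted p = 0.053) were next to the threshold. CARS1, SARS1 and QARS1, for cysteine, serine and glutamine, had log2 fold changes between -0.14 and -0.11. HARS1, MARS1, NARS1, RARS1, VARS1, WARS1 and FARSA, for histidine, methionine, asparagine, arginine, valine, tryptophan and the phenylalanine alpha subunit, lay between -0.54 and -0.21. WARS1 had drug-surviving libraries from 214.1 FPKM in PR 2 to 364.6 FPKM in CR, on both sides of the parental values of 268.1, 276.9 and 325.1 FPKM.

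The stress genes moved in both directions. DDIT3, a transcription factor that promotes death under lasting stress (NCBI Gene 1649, chromosome 12, 57516588 to 57520517), read 13.8, 11 and 9.43 FPKM in parental libraries. Its values were 24.1 in CR, 20 and 49.2 in PR and 18 FPKM in DR, all above the parental range, and it rose 2.16-fold (log2 1.11 ± 0.31, adjusted p = 0.019). ATF3, an early stress factor (chromosome 1, 212565407 to 212620777), read 1.33, 1.98 and 7.71 FPKM in parental libraries and 10.2 in CR, 15.7 and 43.8 in PR and 8.63 in DR. It rose by 2.32 ± 0.71 on the log2 scale (adjusted p = 0.03), with parental replicate 3 close to the DR library. Neither rise was called without parental replicate 2 or with the form of the library names as a covariate, described below. DDIT3 was also lost without parental replicate 3, and ATF3 without parental replicate 1 or PR 2. The highest adjusted p over the alternatives was 0.0816 for DDIT3 and 0.116 for ATF3.

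ATF4 itself (NCBI Gene 468, chromosome 22, 39520559 to 39522686) read 270.0, 324.3 and 257.6 FPKM in the parental libraries. CR cells had 226.7, PR cells 169.8 and 185.3, and DR cells 116.3 FPKM, so that all 4 were lower than any parental library, as they were in counts scaled to the library total alone (CPM, 326.6 to 436.8 against 483.4 to 580.1). The FPKM of ATF4 in DR cells was low for its reads: over the 10 libraries, the ratio of CPM to FPKM ranged over 0.98 on the log2 scale, the widest of the 39. The fold change did not pass the test (log2 -0.47 ± 0.20, adjusted p = 0.0881). These are mRNA levels, and ATF4 is controlled largely at translation, which was not measured. CEBPG, a C/EBP partner of ATF4, fell from 9.89 ± 0.369 FPKM (SD, n = 3) to 6.4 ± 0.838 FPKM (SD, n = 4), with no overlap (log2 -0.75 ± 0.16, adjusted p = 0.00631).

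TRIB3, an ATF4 target that binds ATF4 and kinases, read 30.3, 28.7 and 49.7 FPKM in parental cells and 24 in CR, 19.8 and 43.4 in PR and 16.4 in DR (adjusted p = 0.152). CHAC1, which breaks down glutathione, read 3.13, 3.48 and 5.02 FPKM against 7.01 in CR, 3.14 and 4.32 in PR and 4.87 in DR (adjusted p = 0.537). For both genes the ranges overlapped. VLDLR, a lipoprotein receptor, lay at 1.92 to 4.32 FPKM in parental and 2.38 to 4.29 FPKM in drug-surviving cells, and the stress protein gene NUPR1 was below 1 FPKM in every library, with at most 388 reads.

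Of the transporters, SLC7A5, the light chain of the carrier of large neutral amino acids LAT1 (chromosome 16, 87830023 to 87869507), had the widest parental spread, at 127.9, 47.9 and 92.7 FPKM. Drug-surviving cells had 24.7 in CR, 49 and 38.6 in PR and 29.4 FPKM in DR, so PR 1 just overlapped parental replicate 2. SLC7A5 fell 2.75-fold (log2 -1.46 ± 0.32, adjusted p = 0.00668). SLC7A1, a carrier of arginine and lysine, read 21.1, 12.7 and 23 FPKM against 11.3, 11, 10.3 and 9.14 FPKM in CR, PR 1, PR 2 and DR, which did not overlap (log2 -0.99 ± 0.24, adjusted p = 0.0109). SLC1A5, a glutamine carrier, fell by 0.81 on the log2 scale (adjusted p = 0.0213), with parental replicate 2 (47 FPKM) inside the drug-surviving range. SLC3A2, the heavy chain that partners SLC7A5, did not share the fall of its light chain. It read 156.5, 102.1 and 114.3 FPKM in parental libraries and 164.8 in CR, 161.1 and 225.9 in PR and 135.1 in DR (log2 0.28 ± 0.22, adjusted p = 0.357).

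**Figure D3:**
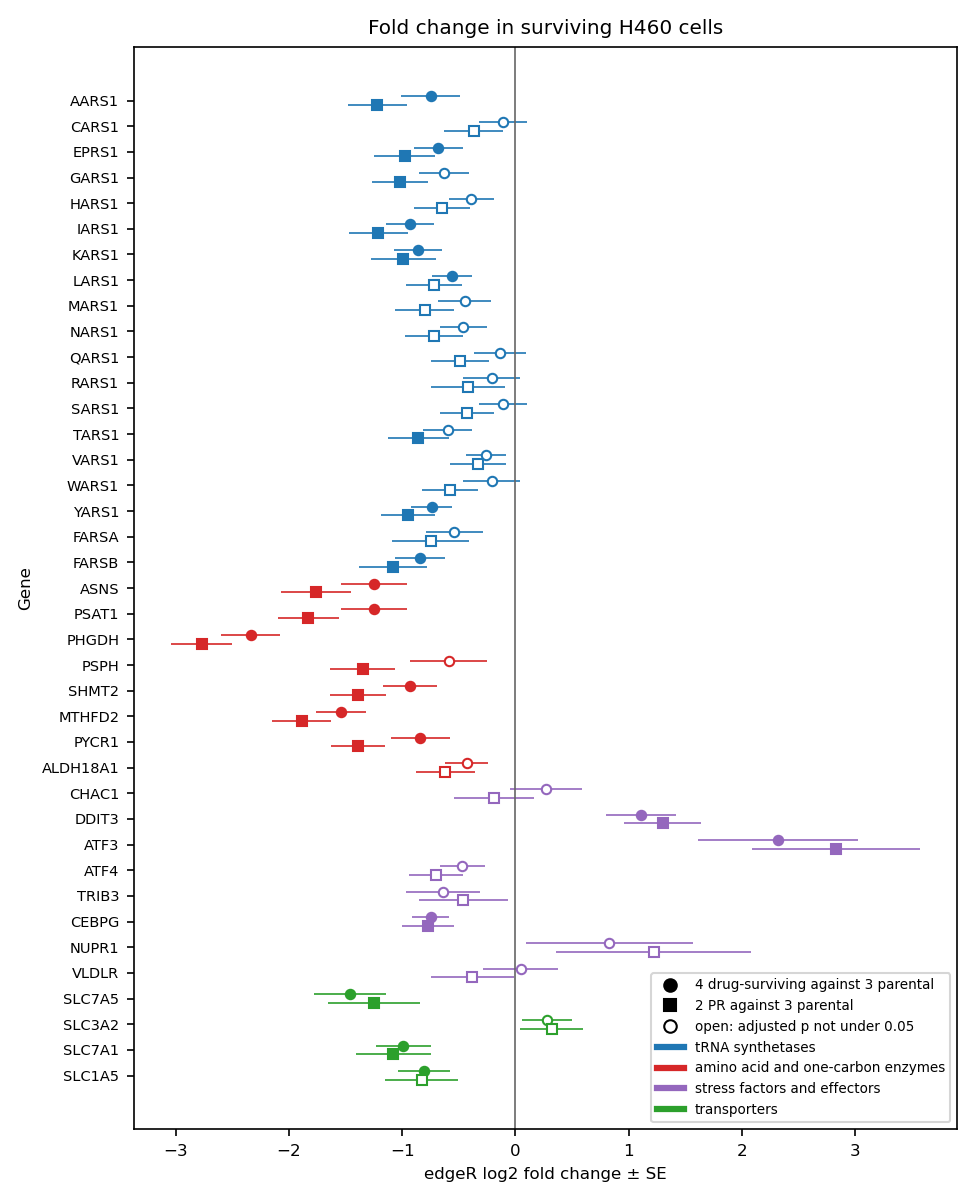
edgeR log2 fold changes with SE (x axis) of the 39 genes (y axis) for the 4 drug-surviving libraries (circles) and the 2 PR libraries alone (squares), each against the 3 parental libraries; filled symbols have an adjusted p under 0.05. The red synthesis enzymes reach furthest left, PHGDH at -2.34 and -2.77, the 19 blue synthetases are left of 0 in this fit (with upper-quartile scaling 30 of the 39 members are), and DDIT3 and ATF3 are the called genes on the right.

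Other measures moved together with these falls, and their part in them was not tested. All 15 genes of a proliferation list fell (median log2 -3.45), MKI67 and TOP2A among them, and the summed FPKM of that list was 728.3 to 1153 in the parental and 137.1 to 277.2 in the drug-surviving libraries. MYC fell by 0.95 ± 0.23 on the log2 scale (edgeR, adjusted p = 0.00972), while MAX and MYCL, also tested, were not called. MYCL did not exceed 0.0843 FPKM in the parental and drug-surviving libraries. The summed FPKM of 7 markers of blood, endothelium and fibroblasts was 15.2 to 17.1 in parental and 37.5 to 58.8 in drug-surviving cells. CD68, a lysosomal protein also made by other cells, made most of this sum, at 57.9 FPKM in CR, 30.7 and 44.2 in PR and 46.5 in DR. COL1A1 read 0.783, 6.51, 6.26 and 1.41 FPKM in the same order. PTPRC, CD3E, PECAM1 and CDH5 were at 0 in 5, 9, 6 and 8 of the 10 libraries. The names of the libraries in the table take 2 forms, with a hyphen for parental 2, PR 2, CR and DR and without one for the rest, which is known only as a form of name. Within the hyphen form (3 drug-surviving against 1 parental library) 30 of the 39 members were lower with a median difference in log2(FPKM + 1) of -0.32. Within the other form (1 against 2 libraries) 35 of the 39 were lower with a median of -0.55.

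The 19 called genes kept their call in 201 of 247 alternative fits, lost it in 46 and changed direction in 0. IARS1, KARS1, YARS1, ASNS, PSAT1, PHGDH, SHMT2, MTHFD2, CEBPG and SLC7A5 kept it in all 13 fits each. AARS1, EPRS1, LARS1 and PYCR1 lost it in 7 or more of the 13, among them each fit without PR 1, PR 2 or parental replicate 2. FARSB lost it without parental replicate 1 or 2, SLC1A5 without parental replicate 1 or PR 2 or with the name form as a covariate, and SLC7A1 with the name form as a covariate. Upper-quartile scaling moved the median of all genes to 0.23 and turned the split of all calls from 3397 higher and 2823 lower to 4210 higher and 2032 lower. Under it 13 members were lower and 2 higher, and the members' median lay 0.65 below that of all genes, as it did with TMM scaling.

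Paclitaxel was the 1 drug with replicates. PR cells against parental cells gave 18 members lower and 2 higher (edgeR, adjusted over 19430 genes), where 10.6% of all genes were lower and 17.5% higher. These PR libraries are among the 4 used above and the parental libraries are the same, so the 2 comparisons are not independent. The members' median was -0.77 against 0.054 over all genes tested, and 35 of the 39 were negative.

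Synthesis enzymes again had the widest change in PR cells, with 7 of the 8 lower and a median of -1.58. PHGDH fell 6.83-fold (adjusted p = 0.000893), MTHFD2 fell 3.7-fold (adjusted p = 0.00238), PSAT1 fell 3.55-fold (adjusted p = 0.00308) and ASNS fell 3.4-fold (adjusted p = 0.00508). SHMT2 and PYCR1 both fell by 1.39 on the log2 scale. PSPH read 1.82 and 2.47 FPKM in PR cells against 5.51, 4.33 and 4.05 FPKM in parental cells, a 2.55-fold drop without overlap (adjusted p = 0.00915), while CR cells had 4.69 FPKM and DR cells 3.88 FPKM.

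Among the synthetases, 8 fell in PR cells: AARS1 (log2 -1.22), IARS1 (log2 -1.21), FARSB (log2 -1.08), GARS1 (log2 -1.02), KARS1 (log2 -0.99), EPRS1 (log2 -0.98), YARS1 (log2 -0.95) and TARS1 (log2 -0.86). CEBPG (log2 -0.77), SLC7A5 (log2 -1.25) and SLC7A1 (log2 -1.08) completed the lower calls. DDIT3 rose 2.46-fold (adjusted p = 0.0226) and ATF3 rose 7.12-fold (adjusted p = 0.0206), and PR 2 was well above PR 1 for both, with 49.2 against 20 FPKM of DDIT3 and 43.8 against 15.7 FPKM of ATF3. Neither was called without PR 2 or without parental replicate 2, and without either PR library the lower calls went from 18 to 3. The 20 called genes kept their call in 183 of 260 alternative fits and lost it in 77. PHGDH and MTHFD2 were called lower in all 13, whereas SLC7A5 and SLC7A1 kept the call in 4, KARS1 and TARS1 in 5 and CEBPG in 6. ATF4 had a log2 fold change of -0.70 ± 0.24 (adjusted p = 0.0572).

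Whether survivors of a microtubule drug differed from survivors of the 2 drugs that damage DNA was asked by setting the 2 PR libraries against the CR and the DR library. No member was called by edgeR (0 of 39, against 0.224% of 19601 genes higher and 0.0204% lower). At an unadjusted p under 0.05 there were 20 of the 39, of which 17 were lower and 3 higher in PR cells, where 8.85% of all genes were lower and 14.9% higher. DESeq2 called 13 members lower and 0 higher, where it called 2.57% of all 31280 genes with a read lower and 2.78% higher. Those 31280 genes were not filtered on low counts as the 19601 were, so the shares are not on the same base. In FPKM, both PR libraries were below both CR and DR in 23 members and above both in 4, where 15% and 42.6% of all genes tested were. The 23 comprised 14 of the 19 synthetases, 7 of the 8 synthesis enzymes and the stress genes CHAC1 and VLDLR. The 4 above were ATF3, NUPR1, SLC7A5 and SLC1A5. The largest differences among the enzymes were those of PSPH (log2 -1.19 ± 0.20, adjusted p = 0.0683), PSAT1 (log2 -0.92 ± 0.15, adjusted p = 0.0672) and PYCR1 (log2 -0.86 ± 0.14, adjusted p = 0.0672), and the difference of AARS1 was the widest of the synthetases (log2 -0.75 ± 0.15, adjusted p = 0.0731). Of the proliferation list no gene was called (median log2 0.81), and its summed FPKM was 277.2 in PR 1 and 137.1 in PR 2, on either side of 186.4 in CR and 160.0 in DR. Its part in these differences was not tested.

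CR and DR cells had a single library each, and their differences from the mean of the parental libraries have no replicate check and no test. Differences are in log2(FPKM + 1), and 38 members had an FPKM of at least 1 in a library compared. In CR cells 3 members were more than 2-fold lower, where 7.05% of all genes were, and 2 were more than 2-fold higher, where 5.84% were. PHGDH was 3.3-fold lower, SLC7A5 3.26-fold lower and MTHFD2 2.28-fold lower, while ATF3 was 2.86-fold higher and DDIT3 2.05-fold higher. In DR cells 5 members were more than 2-fold lower (5.68% of all genes) and 1 higher (5.76%). PHGDH was 4.69-fold lower, SLC7A5 2.76-fold lower, ATF4 2.42-fold lower, MTHFD2 2.41-fold lower and TRIB3 2.08-fold lower, and ATF3 was 2.45-fold higher. ATF4 passed 2-fold in FPKM only: it was 406.0 CPM in DR cells against 483.4, 580.1 and 512.8 in parental cells, which is 1.29-fold, and PR 1 was lowest at 326.6. In CPM SLC7A1 was 2.05-fold lower in DR cells, and DDIT3 was 1.96-fold higher in CR cells. TRIB3 was lowest in DR cells among the H460 libraries. No synthetase passed 2-fold in CR or DR cells, and their medians were -0.32 and -0.18, with 15 of 19 negative in each.

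TS culture was compared with 2D over both lines, with the line as a covariate. No member was called (0 of 39, against 0.147% of 18372 genes higher and 0.0435% lower), none had an unadjusted p under 0.05, and DESeq2 also called 0. With 1 TS library a line, the lines serve as the replicates, and their differences went opposite ways in most members. For PHGDH the fit gave -0.66 ± 0.40 on the log2 scale (adjusted p = 0.94), so the interval still holds large changes.

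In H460 no member differed by 2-fold between TS and the mean of the parental libraries, where 1.93% of all genes were more than 2-fold higher and 1.97% lower. The differences were positive in 27 of 38 members, with a median of 0.19 against 0.010 over all genes. The TS library lay within the parental range in 23 of the 39 members, above it in 14 and below it in 2, where 20.9% of all genes tested were above and 22.2% below. In CPM 11 were above, and AARS1, ASNS and SHMT2 were within the parental range. PSAT1 at 179.8 FPKM, ASNS at 79.3, SHMT2 at 177.6, MTHFD2 at 95, PYCR1 at 73.3 and PSPH at 6.1 FPKM were all above each parental library, as was ATF4 at 326.9 FPKM, while PHGDH at 103.8 FPKM was within the range. WARS1 at 195.6 FPKM and VLDLR at 1.77 FPKM were the 2 below it. The summed FPKM of the proliferation list was 883.2 in these cells, inside the parental range.

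In A549 most of the members were lower in TS culture. Of 38, 34 were lower in the TS than in the 2D library, with a median of -0.54 against -0.072 over all genes, and 7 were more than 2-fold lower against 3.02% of all genes. None was more than 2-fold higher, where 6.7% of all genes were. PHGDH went from 32.6 to 9.08 FPKM (3.33-fold), ASNS from 43.6 to 12.4 FPKM (3.32-fold), PSAT1 from 96.6 to 29 FPKM (3.26-fold) and MTHFD2 from 62.6 to 25 FPKM (2.44-fold). These 4 of the 8 synthesis enzymes were joined by the transporters SLC7A5, from 629.7 to 195.5 FPKM, and SLC7A1, from 15.6 to 6.91 FPKM, and by CHAC1, from 3.32 to 0.699 FPKM.

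PYCR1 (52.9 and 48.3 FPKM) and ALDH18A1 (28.1 and 29.5 FPKM), both of proline synthesis, had close values in the 2 A549 libraries. Among the synthetases 18 of 19 were lower in A549 TS, from -0.84 for MARS1 to -0.12 for SARS1, and QARS1 was at 46.7 and 47.6 FPKM. ATF4 went from 172.2 to 122.8 FPKM and CEBPG from 19 to 12.6 FPKM. DDIT3 (5.93 to 7.96 FPKM) and TRIB3 (26.8 to 37.7 FPKM) were the stress genes with a higher value in TS. The summed FPKM of the proliferation list was 1103 in A549 2D and 624.0 in A549 TS. That of the epithelial markers was 2801 and 7177, and that of the 7 markers of other cells 21.4 and 70.7, of which CD68 made 19.6 and 69.8 FPKM. The part of these in the differences was not tested. Each side is 1 library, so there is no replicate check.

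**Figure D4:**
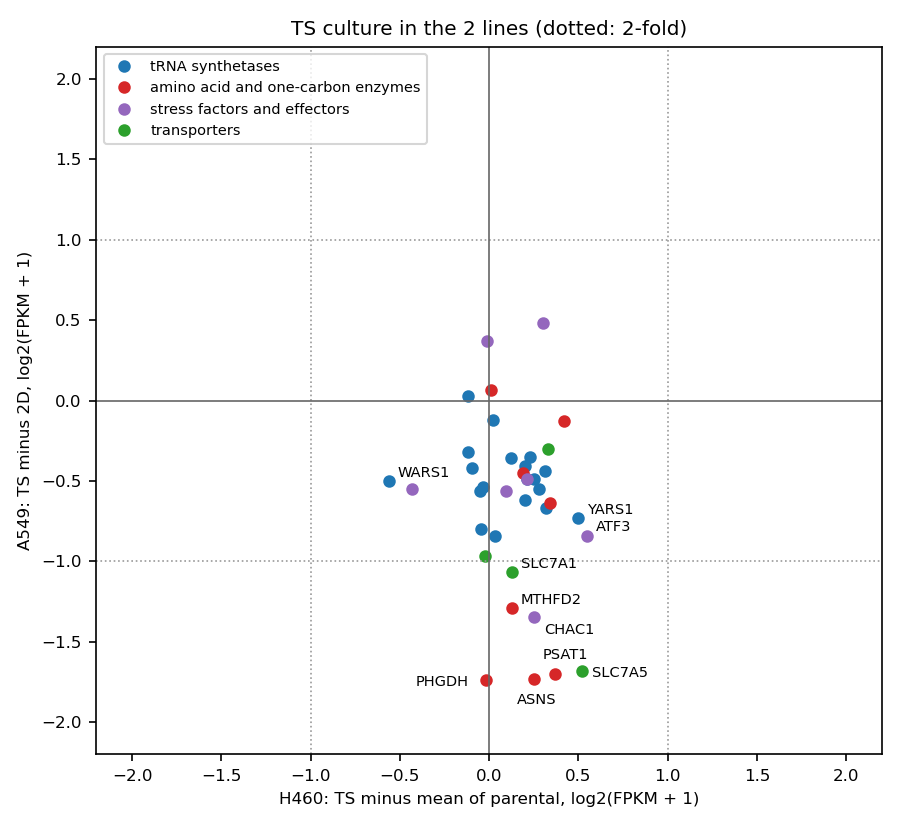
Difference between TS and 2D culture in log2(FPKM + 1) for 38 genes, in H460 (x axis, TS minus the mean of 3 parental libraries) and in A549 (y axis, TS minus 2D), coloured by role, with dotted lines at 2-fold. All points stay between the vertical 2-fold lines, while 7 points (PHGDH, ASNS, PSAT1, SLC7A5, CHAC1, MTHFD2, SLC7A1) lie below the lower horizontal one.

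The difference of the TS response between the lines was tested as an interaction, whose spread comes from the 3 parental libraries alone, so the lone libraries are assumed to vary like them. No member was called (0 of 39, against 0.341% of 19941 genes higher in A549 and 0.0953% lower). At an unadjusted p under 0.05 there were 7, each more negative in A549, where 2.55% of all genes were. PSAT1 (log2 -2.05 ± 0.58, adjusted p = 0.24), PHGDH (log2 -1.80 ± 0.55, adjusted p = 0.298) and ASNS (log2 -1.96 ± 0.60, adjusted p = 0.304) came first, followed by MTHFD2, SLC7A5, YARS1 and CHAC1. DESeq2 called 1 member, lower in A549, where it called 136 of all 27597 genes with a read lower and 403 higher. The direction was negative in 34 of 39 members with a median of -0.68, but the difference between lines did not pass the test with edgeR.

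The lines themselves were compared in 2D, again with 1 A549 library against the mean of the parental H460 libraries. Of 38 members, 5 were more than 2-fold lower in A549, where 7.73% of all genes were, and 3 were more than 2-fold higher, where 11.2% were. WARS1 for tryptophan was 5.6-fold lower, at 50.8 FPKM, PHGDH 3.15-fold lower, at 32.6 FPKM, SHMT2 2.41-fold lower, at 64.1 FPKM, EPRS1 2.29-fold lower, at 42.5 FPKM, and LARS1 2.08-fold lower, at 35 FPKM. Both chains of LAT1 were higher, SLC7A5 by 7.52-fold at 629.7 FPKM and SLC3A2 by 3.08-fold at 378.5 FPKM, and PSPH was 2.94-fold higher at 15.4 FPKM.

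Of the genes lower in A549 in 2D, PHGDH, SHMT2, EPRS1 and LARS1 were also called lower in drug-surviving H460 cells. PHGDH and SHMT2 kept that call in all 13 alternative fits, EPRS1 in 6 and LARS1 in 3. EPRS1 read 112.7, 97.3 and 87.4 FPKM in parental H460 cells and 71.9 in CR, 67.7 and 49.8 in PR and 76.5 in DR. LARS1 read 68, 83.8 and 70.1 FPKM against 55.5, 57.3, 47.6 and 55.6 FPKM in the same order. All drug-surviving values of both genes were under the parental ones, and those of A549 in 2D (42.5 and 35 FPKM) were lower still.

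The rest of the pathway was read from lists fixed by function. In the fit of drug-surviving against parental cells, 15.3% of all genes tested were called lower and 18.5% higher. The eIF2 machinery and its kinases, phosphatases and exchange factor held 5 of 14 genes that were lower and 0 higher in drug-surviving cells, led by EIF2S2 (log2 -0.87), EIF2B3 (log2 -0.85) and EIF2S3 (log2 -0.66), which encode subunits of eIF2 and of its exchange factor. Scaffold and partner genes of the cytosolic synthetases gave 3 of 5 lower, among them EEF1E1 (log2 -0.85) and AIMP2 (log2 -0.77). The mitochondrial synthetases, which charge tRNA inside the organelle, gave 6 of 17 lower, among them LARS2 (log2 -1.26) and NARS2 (log2 -1.04), and VARS2 higher (log2 0.61). Their median was -0.56, next to -0.54 for the cytosolic ones and 0.060 for all genes.

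Other genes known as ATF4 targets were called in both directions. In drug-surviving cells 10 of 24 tested were lower and 6 higher, where 15.3% and 18.5% of all genes tested were. Lower were CBS (log2 -1.95) and CTH (log2 -1.92), the enzymes that turn homocysteine to cysteine, and the neutral amino acid carrier SLC43A1 (log2 -1.91). Higher were the secreted stress protein GDF15 (log2 3.89), the secreted glycoprotein STC2 (log2 2.79) and GADD45A (log2 2.19), which answers DNA damage. These 3 are also induced by other pathways, and GDF15 and GADD45A are p53 targets. In genes of serine, glycine, folate and proline metabolism outside the 39, 7 of 11 were lower, among them SHMT1 (log2 -2.14) and GLDC (log2 -1.76). PRODH (log2 2.34), which breaks proline down, and AMT (log2 1.69) were higher, both at low levels. PRODH read 0.0418 to 0.113 FPKM in parental and 0.189 to 0.82 FPKM in drug-surviving libraries. AMT read 0.0668 to 0.64 and 0.819 to 1.71 FPKM. SLC43A1 was low as well, at 0.6 to 1.71 FPKM in parental and 0.175 to 0.425 FPKM in drug-surviving libraries.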

How the data were processed

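The deposited table holds 3 values for each of 46427 genes in each of 10 libraries, a whole-number count of reads, FPKM and TPM. Per the labels and the submitters' processing notes, the authors sequenced TruSeq poly(A) libraries and used bcl2fastq 1.8.4, Trimmomatic, HISAT2 2.1.0 and StringTie 2.1.3b with GRCh38. The counts were deposited by the authors without normalization, and the rule for reads shared between genes is not given in the sources used here, so near-identical copies of a gene could take or lend reads. FPKM and TPM were computed by the authors per length and library, and TPM was not used in a result because it is a constant multiple of FPKM in a library.

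Counts were tested with edgeR 4.0.16 (R 4.3.3; quasi-likelihood, TMM, filterByExpr with a minimum count of 10) and adjusted over all genes tested by Benjamini-Hochberg, with a threshold of 0.05. Single libraries were compared as log2(FPKM + 1) with a cut-off of 2-fold, leaving out genes under an FPKM of 1 in all libraries compared, so fold changes of low genes are understated. Alternatives were DESeq2 1.42.0, upper-quartile factors, no filter, limma 3.58.1 on log2 FPKM with pseudocounts of 1 and 0.1, leaving out each replicate, the form of the library name, a replicate block, other controls and, chosen after seeing the data, CPM (counts scaled to the library total) in place of FPKM. The fits were tested on simulated data. Depth was 59499787 to 89541774 reads.

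Members and lists were chosen with earlier results of these data known. Named with the value in every library were ATF4, DDIT3, ASNS, up to 10 called members of the largest change in each fit and any member over 2-fold in a single-library comparison. From other lists, counts and up to 3 called genes in each direction were named, except a few that are not reported here, and MYC, MKI67, TOP2A and the markers were named as genes known to report the cell state. Positions and promoter windows are from RefSeq GRCh38.p14.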

Additional observations from a re-analysis of the deposited data

Results flagged for a closer look

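In each of the 39 genes the 4 drug-surviving libraries were searched for a single value apart from the rest by Dixon's ratio, which chance passes in about 1 of 20 groups. CARS1, for cysteine, stood at 13.2 FPKM in PR 1, whereas CR, DR and PR 2 read 20.7, 20.2 and 20.1 FPKM. RARS1, for arginine, stood at 80.6 FPKM in DR, whereas CR, PR 1 and PR 2 read 65.9, 65.9 and 66.1 FPKM. Neither gene was called in a comparison.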

How the results depend on the processing

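For drug-surviving against parental cells, leaving out 1 library gave 0 to 2 higher members, the form of the library name as a covariate gave 0, and lower members numbered 12 to 17 when 1 library was left out. For PR against parental cells, leaving out 1 library gave 0 to 3 higher and 3 to 19 lower members, limma gave 10 lower with either pseudocount, and the name form gave 0 higher. The lowest counts came without PR 1 or PR 2, which leaves 1 PR library assumed to vary like the parental ones. PR and parental replicates share only a number (r = 0.0843 between the differences of replicates 2 and 1 over 19179 genes, 2 pairs), and the replicate block on these 4 libraries gave 1 higher and 24 lower against 2 and 19 without the block. For PR against CR and DR, DESeq2 gave 13 lower, upper-quartile factors 2, no filter 5 lower and 1 higher, and leaving out 1 library 0 to 2 lower. DESeq2 gave 1 lower member for the TS response of A549 against H460, where 136 of all 27597 genes were lower. With 1 parental library as control, CR had 1 higher with parental 1 or 3 and 6 lower with parental 1, DR had 0 higher with parental 3 and 3 lower with parental 2, H460 TS had 1 higher with parental 1 or 2, and A549 2D had 5 higher with parental 2. CPM in place of FPKM, chosen after seeing the data, gave 1 higher in CR. The cause was not tested. No result changed direction. Precision was limited by 1 to 3 libraries a group rather than by depth.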

Other observations

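Genes of the unfolded protein response, the chaperones and folding enzymes of the endoplasmic reticulum, were read beside the 39 genes. In drug-surviving H460 cells 4 of 15 were lower and 1 higher, where 15.3% and 18.5% of all genes tested were. The median log2 fold change of the 15 was -0.30. MANF (log2 -1.30), SDF2L1 (log2 -1.23) and PDIA4 (log2 -0.79) fell, and DNAJB9, a cochaperone of the lumen, rose by 1.80 on the log2 scale (edgeR, adjusted p = 0.000268). In PR cells 7 of 15 were lower and 1 higher, where 10.6% and 17.5% of all genes tested were. The median of the 15 was -0.73, next to -0.77 for the 39 genes. In A549 TS cells, where 34 of 38 amino acid and synthetase genes were lower than in 2D, all 15 of these genes were higher, with a median difference in log2(FPKM + 1) of 0.68. XBP1 went from 22.4 to 73.7 FPKM, CRELD2 from 12.6 to 28.9 FPKM and HERPUD1 from 16.1 to 26.8 FPKM, and these 3 were chosen after their values were seen. The A549 values are 1 library each and have no test. In H460 TS cells 11 of the 15 were higher than the parental mean and 4 lower, with a median of 0.10 and 0 more than 2-fold higher. With TS against 2D over both lines, 14 of the 15 were positive and 0 were called by edgeR.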
